A study of Rattus norvegicus with 9 samples.

Results

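The genes described here are 8 members of the cellular iron system, chosen by the gene name given in the deposited count table out of its 30562 genes: Fth1, Ftl1, Tf, Tfrc, Slc40a1, Slc11a2, Ireb2 and Aco1. Where several IDs shared a name, the one with the most counts was taken. This applied to Ftl1 alone, whose ID ENSRNOG00000064385 held 589 counts over all libraries and whose other ID ENSRNOG00000020843 held 0. The genes were brought together with earlier results of these data known. The higher Fth1 level in ChryM than in Model was among them, so the values of Fth1 in that comparison are given as a description.

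Poly(A) RNA of the rat hippocampus was sequenced in 3 groups of 3 libraries each, all from male Sprague-Dawley rats that were 6 to 8 weeks old on arrival. The ChryM rats received chrysophanol, a plant anthraquinone, through a stomach tube once the disease protocol was in place, for 14 days; the series title shows that these were rats of the disease protocol, and the labels state neither the dose nor what the M stands for. The Model rats had the disease protocol: a high-fat diet for 4 weeks, 1 dose of 50 mg/kg streptozotocin, which destroys the pancreatic beta cells, a fasting glucose of at least 16.7 mmol/L, and then 5 weeks of unpredictable mild stress. The Ctrl rats were normal controls. The labels do not say that each library came from a separate rat, so the p-values measure the spread between libraries.

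Cells take up iron bound to transferrin, the carrier encoded by Tf, through the transferrin receptor encoded by Tfrc, and the metal leaves the endosome through the transporter encoded by Slc11a2. Iron that is not used at once is stored in ferritin, a shell of heavy chains (Fth1), which oxidise iron, and light chains (Ftl1), which help to form its mineral core, and iron is exported through ferroportin (Slc40a1). The RNA-binding proteins encoded by Aco1 and Ireb2 hold back ferritin translation and stabilise Tfrc mRNA when iron is scarce, so that mRNA levels of ferritin need not follow its protein. In the brain, oligodendrocytes are rich in iron and ferritin and are the main makers of transferrin mRNA along with the choroid plexus.

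Each library held between 631119 and 866048 counts, spread over 13343 to 14256 genes. At this depth 5 of the 8 members passed the filter on low counts, which asked for about 12.9 CPM (read counts scaled to a common library size) in at least 3 libraries and left 7073 genes. Fth1, Ftl1 and Tf passed it in all 9 libraries. Tfrc passed only through the 3 Ctrl libraries, so its selection favoured a higher level in Ctrl. Ireb2 passed through 2 Ctrl libraries, 1 Model library and 0 ChryM libraries, so its selection favoured a lower level in ChryM. Aco1, Slc11a2 and Slc40a1 did not pass and were not tested. Markers of the other cells that hippocampal tissue can hold differed between the groups: the summed level of 13 oligodendrocyte genes was 15980 to 16995 CPM in ChryM, 9077 to 10179 CPM in Model and 16040 to 16331 CPM in Ctrl, and that of 11 choroid plexus genes was 87.5 to 102 CPM in ChryM, 37.6 to 57.8 CPM in Model and 1826 to 1933 CPM in Ctrl. The neuron markers were present in all libraries, at a summed 2204 to 2219 CPM in ChryM, 2486 to 2572 CPM in Model and 2333 to 2552 CPM in Ctrl.

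Taken per transcript length, in FPKM (fragments scaled to transcript length and library total), the members spanned a wide range and fell into 3 tiers. Fth1 averaged 1637 ± 152 FPKM in ChryM, 906 ± 38.6 FPKM in Model and 1074 ± 82.5 FPKM in Ctrl (SD, n = 3 each). Tf followed at 97.4 ± 8.52 FPKM in ChryM, 72.8 ± 4.72 FPKM in Model and 97.4 ± 9.60 FPKM in Ctrl, and Ftl1 at 35.8 ± 5.43 FPKM in ChryM, 36.6 ± 5.11 FPKM in Model and 34.3 ± 1.81 FPKM in Ctrl. These 3 genes kept the same order in each group, and their libraries did not overlap.

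The remaining members lay far below. Their order in ChryM was Aco1 at 2.72 ± 0.786 FPKM, Tfrc at 2.45 ± 0.0754 FPKM, Slc11a2 at 2.22 ± 0.953 FPKM, Ireb2 at 0.751 ± 0.539 FPKM and Slc40a1 at 0.0572 ± 0.0991 FPKM. In Model it was Tfrc at 1.76 ± 0.872 FPKM, Ireb2 at 1.57 ± 1.05 FPKM, Aco1 at 1.43 ± 0.743 FPKM, Slc11a2 at 1.37 ± 0.344 FPKM and Slc40a1 at 0.183 ± 0.172 FPKM. In Ctrl it was Tfrc at 4.82 ± 1.54 FPKM, Aco1 at 3.07 ± 0.314 FPKM, Ireb2 at 1.72 ± 0.685 FPKM, Slc11a2 at 1.65 ± 0.328 FPKM and Slc40a1 at 0.218 ± 0.249 FPKM. Within this lower tier the libraries of neighbours overlapped, except that in ChryM Ireb2 lay below Slc11a2, in Ctrl Ireb2 lay below Aco1, and in every group Slc40a1 lay below all the others.

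**Figure D1:**
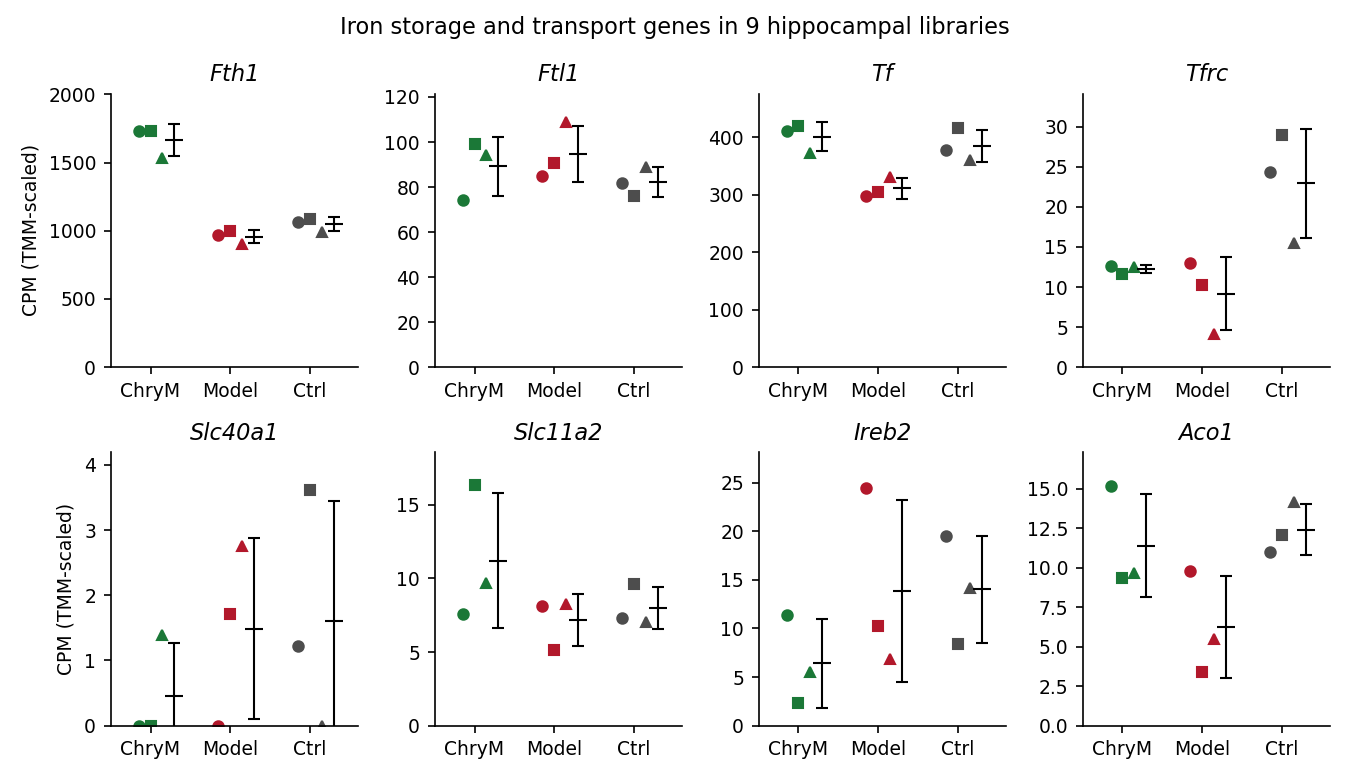
TMM-scaled CPM of the 8 genes in each library (circle, square and triangle are replicates 1, 2 and 3), with the mean and SD of each group beside the points, drawn from 0 upwards, and an axis of its own for each gene. Fth1 lies at 1531 to 1732 CPM in ChryM, above all Model and Ctrl libraries; Tf is lowest in Model and Tfrc highest in Ctrl.

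Ferritin heavy chain mRNA was the member that stood apart in the chrysophanol group, and the light chain did not move with it. Fth1 (ENSRNOG00000022619) was at 1731, 1732 and 1531 CPM in ChryM, 967, 999 and 906 CPM in Model and 1066, 1089 and 992 CPM in Ctrl. All ChryM libraries lay above all Model and Ctrl libraries, and the Model and Ctrl libraries overlapped. Of all genes tested, 23.6% had ChryM and Model libraries that did not overlap, and 31.7% had ChryM and Ctrl libraries that did not. The fitted level in ChryM was 1.74 times that in Model, a log2 difference of 0.80 ± 0.07 (SE) with a 95% interval of 0.66 to 0.94, which is the difference known when the members were chosen. Against Ctrl, the log2 difference of ChryM was 0.67 ± 0.07. That comparison uses the same ChryM libraries, whose high Fth1 level was known, so it is given without a test and is not a second observation.

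In Model against Ctrl, Fth1 had a log2 difference of -0.14 ± 0.07, which did not pass edgeR's quasi-likelihood test (adjusted p = 0.267). This call depended on the scaling. With library totals alone as the scale, the median of all genes in that comparison moved to -0.14, and Fth1 passed at -0.26 (adjusted p = 0.00151). With the genes limited to a mean count of at least 30 it passed at -0.21 (adjusted p = 0.0151).

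Ftl1 counts were 59, 85 and 68 in ChryM, 52, 53 and 79 in Model and 67, 63 and 63 in Ctrl. The scaled levels were 89.2 ± 13.1 CPM in ChryM, 94.7 ± 12.5 CPM in Model and 82.2 ± 6.56 CPM in Ctrl (SD, n = 3 each), with all 3 groups overlapping. None of the comparisons passed the test: the log2 difference was -0.10 ± 0.15 for ChryM against Model (adjusted p = 0.807), 0.12 ± 0.15 for ChryM against Ctrl (adjusted p = 0.621) and 0.22 ± 0.16 for Model against Ctrl (adjusted p = 0.421). The 95% interval for ChryM against Model, -0.40 to 0.20, did not reach the lower bound of the Fth1 interval. That Fth1 difference was known when the members were chosen, so the gap between the intervals is a description and not a test.

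The ratio of heavy to light chain mRNA, from the FPKM of each library, put the unequal change of the 2 chains in 1 number. It was 57.0, 42.8 and 39.8 in ChryM, 27.9, 27.0 and 20.4 in Model and 32.0, 35.1 and 27.3 in Ctrl. Every ChryM library was above every library of the other groups, and Model and Ctrl overlapped. The difference in mean log2 ratio was 0.89 for ChryM minus Model, 0.55 for ChryM minus Ctrl and -0.33 for Model minus Ctrl. In two-sided exact permutation tests with 3 libraries a group, the smallest p possible is 0.1, and Model against Ctrl gave 0.2, also when adjusted over the 3 group pairs. Both differences of ChryM rest on its Fth1 level, known when the members were chosen, and are given without a test. The height of the ratio, though not its difference between groups, depends on the gene lengths in the deposited table.

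**Figure D2:**
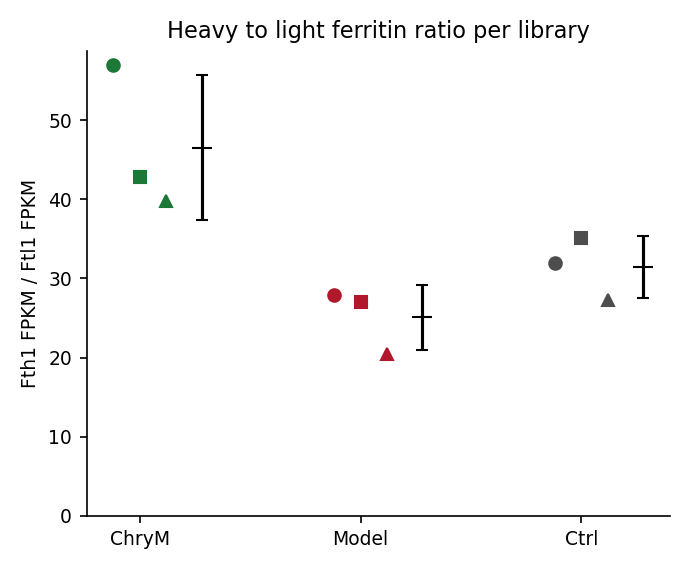
Ratio of Fth1 FPKM to Ftl1 FPKM in each library (circle, square and triangle are replicates 1, 2 and 3), with the mean and SD of each group. ChryM averages 46.5 ± 9.17, Model 25.1 ± 4.11 and Ctrl 31.4 ± 3.93.

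Both ferritin genes have near copies in the rat genome that can share reads with them. RefSeq lists 5 pseudogenes and 1 further gene named as like Fth1, and 14 pseudogenes and 7 further genes named as like Ftl1. The pseudogene Fth1-ps5, named here after its values were seen, was at 99.0 ± 15.1 CPM in ChryM, 61.4 ± 7.54 CPM in Model and 64.0 ± 7.16 CPM in Ctrl (SD, n = 3 each). Its log2 difference was 0.68 ± 0.17 for ChryM against Model and 0.62 ± 0.16 for ChryM against Ctrl, given without a test because of that choice. Whether its counts are reads of Fth1 was not tested. Adding them to Fth1 changed no call.

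Transferrin mRNA was lower in Model than in both other groups. Tf (ENSRNOG00000030625), the carrier gene, was at 411, 420 and 372 CPM in ChryM, 298, 304 and 332 CPM in Model and 379, 416 and 360 CPM in Ctrl. Every Model library lay below every ChryM and every Ctrl library, and the ChryM and Ctrl libraries overlapped. Model and Ctrl libraries did not overlap in 26.1% of all genes tested. Against Ctrl, Tf fell in Model by 0.31 on the log2 scale, SE 0.09 (edgeR, adjusted p = 0.0146). Against Model, Tf rose in ChryM by 0.36 ± 0.09 (adjusted p = 0.00334). The difference between ChryM and Ctrl was 0.06 ± 0.09, with a 95% interval of -0.11 to 0.23 (adjusted p = 0.693).

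The rise in ChryM over Model was called in all 21 other settings tried. The fall in Model was not called when Ctrl 2, Model 1 or Model 2 was left out (adjusted p = 0.131, 0.0672 and 0.0718) or without the count filter (adjusted p = 0.0717). A gene for a long noncoding RNA overlaps Tf in RefSeq, and no source used here says whether counting used the strand, so reads of the pair may have been counted together.

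Oligodendrocyte markers were lower in Model than in both other groups, as Tf was, while their direction matched that of Fth1 in ChryM against Model and not in ChryM against Ctrl. Of the 13 markers, all with counts, 11 were tested. In Model against Ctrl 0 were higher and 11 lower, with a median log2 difference of -1.12; in ChryM against Model 7 were higher and 0 lower, with a median of 0.51; and in ChryM against Ctrl 1 was higher and 6 lower, with a median of -0.35. The median over all genes tested was -0.02, 0.00146 and -0.00962 in these comparisons. The summed level rested largely on Mbp, which encodes myelin basic protein, and Mobp, another myelin protein gene.

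Set against the summed markers, the 2 iron genes behaved differently. Fth1 per unit of the sum was 0.0954 to 0.108 in ChryM, 0.0950 to 0.108 in Model and 0.0619 to 0.0667 in Ctrl. The ChryM and Model libraries overlapped and both groups lay above Ctrl. Tf per unit of the sum was 0.0232 to 0.0263 in ChryM, 0.0293 to 0.0366 in Model and 0.0225 to 0.0255 in Ctrl. Here the Model libraries lay above both other groups, which overlapped. Fth1 per unit of summed astrocyte markers was 1.03 to 1.21 in ChryM, 0.564 to 0.623 in Model and 0.621 to 0.634 in Ctrl. There the ChryM libraries lay above both other groups, which overlapped. Per unit of the choroid plexus sum Fth1 was 14.9 to 19.8 in ChryM, 15.7 to 26.6 in Model and 0.514 to 0.596 in Ctrl. The choroid plexus sum was lower in ChryM and Model than in Ctrl, while the Tf CPM of ChryM overlapped those of Ctrl. In bulk tissue, fewer cells of a type and less RNA per cell cannot be told apart, and the part of these markers in the Fth1 and Tf results was not tested.

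**Figure D3:**
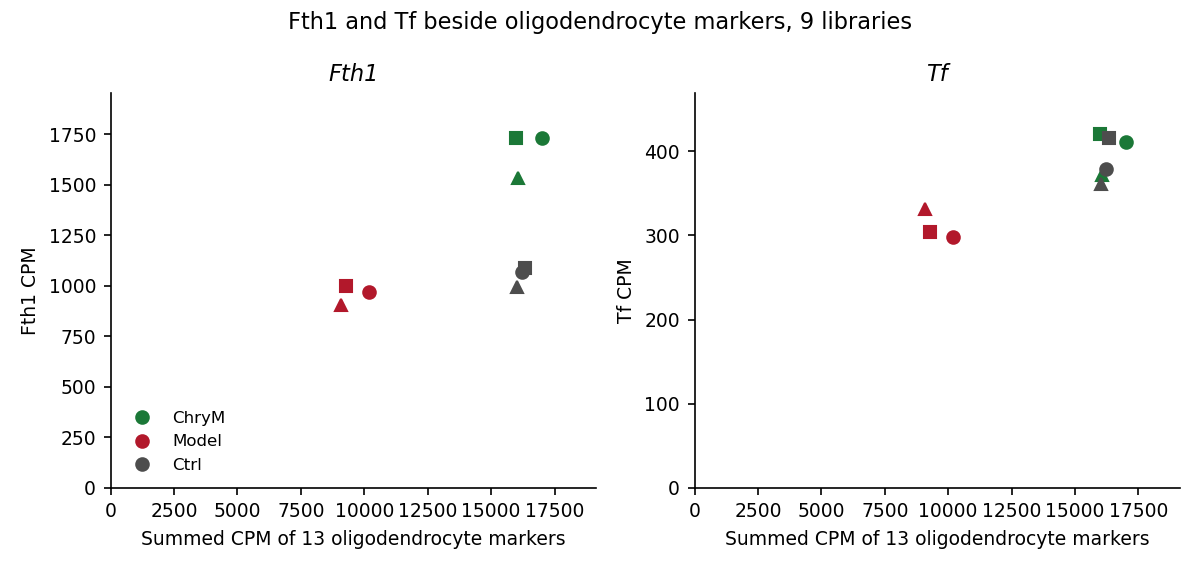
CPM of Fth1 (left) and Tf (right) in each library against the summed CPM of 13 oligodendrocyte markers (circle, square and triangle are replicates 1, 2 and 3). Model libraries lie at 9077 to 10179 on the horizontal axis; ChryM and Ctrl libraries lie close together there, at 15980 to 16995 and 16040 to 16331, where Fth1 separates them and Tf does not.

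Transferrin receptor mRNA was low in both groups of the disease protocol. Tfrc (ENSRNOG00000001766), the receptor through which most cells import transferrin iron, had 10, 10 and 9 counts in ChryM, 8, 6 and 3 counts in Model and 20, 24 and 11 counts in Ctrl. Scaled, this was 12.2 ± 0.507 CPM in ChryM, 9.14 ± 4.56 CPM in Model and 23.0 ± 6.81 CPM in Ctrl (SD, n = 3 each). Both groups lay below all Ctrl libraries and overlapped each other. Of all genes tested, 26.1% had Model and Ctrl libraries that did not overlap, and 31.7% had ChryM and Ctrl libraries that did not. Because Tfrc passed the count filter only through its high Ctrl libraries, the fit without a count filter bears on it more directly. In that fit Tfrc fell in Model against Ctrl by 1.36 on the log2 scale, SE 0.38 (edgeR, adjusted p = 0.0126), and the difference of ChryM from Ctrl, -0.89 ± 0.33, did not pass (adjusted p = 0.0864). The SE values of that fit are the test's error alone. In the filtered fit the differences from Ctrl were -1.38 ± 0.40 for Model (adjusted p = 0.00568) and -0.92 ± 0.33 for ChryM (adjusted p = 0.0352), p-values that this entry through Ctrl may make too small. ChryM and Model differed by 0.46 ± 0.44, which did not pass (adjusted p = 0.635).

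Few counts stood behind these values. From the summed counts alone, scaled for depth, the Model level was 0.379 of the Ctrl level with an exact 95% interval of 0.206 to 0.662, and the ChryM level was 0.524 of it with an interval of 0.322 to 0.836; these intervals cover counting error only. In the filtered fit the call in Model was lost without Ctrl 2 (adjusted p = 0.0760) or Model 3 (adjusted p = 0.127). The call in ChryM was lost in 9 of 19 settings that gave a value, with adjusted p up to 0.237 without Ctrl 2; it was also lost when ChryM 1, ChryM 2, ChryM 3 or Ctrl 1 was left out (adjusted p = 0.0742, 0.104, 0.0717 and 0.108). Several sets of markers were also lower against Ctrl. They were the oligodendrocyte markers, with 11 of 11 tested lower in Model and 6 lower and 1 higher in ChryM, the choroid plexus sum, given above, and the sum of 6 erythroid genes, of which 1 was at 0 counts, at 105 to 110 CPM in ChryM, 73.4 to 90.5 CPM in Model and 333 to 360 CPM in Ctrl. Endothelial markers, of the vessel cells that carry the receptor in brain, summed to 60.9 to 75.7 CPM in ChryM, 78.3 to 101 CPM in Model and 91.4 to 97.5 CPM in Ctrl. Their part in the Tfrc result was not tested.

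Tf and Tfrc encode the carrier and its receptor and both had lower levels in every Model library than in any Ctrl library, so the 250 bases before their annotated start sites are shown side by side. They are RefSeq sequences of the build GRCr8, read 5′ to 3′ on the gene's strand. The Tf window is chr8:112695377-112695626 on the minus strand and the Tfrc window is chr11:81690319-81690568 on the minus strand. Capitals mark TATAAA, the letters of a TATA box, in Tf, and ACGTG, the core letters of a hypoxia-response element, in Tfrc.
Tf: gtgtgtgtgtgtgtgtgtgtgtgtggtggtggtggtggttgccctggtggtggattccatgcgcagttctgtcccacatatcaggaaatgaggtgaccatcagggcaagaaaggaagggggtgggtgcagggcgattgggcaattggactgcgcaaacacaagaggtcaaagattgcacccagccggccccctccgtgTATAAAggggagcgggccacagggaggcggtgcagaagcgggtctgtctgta
Tfrc: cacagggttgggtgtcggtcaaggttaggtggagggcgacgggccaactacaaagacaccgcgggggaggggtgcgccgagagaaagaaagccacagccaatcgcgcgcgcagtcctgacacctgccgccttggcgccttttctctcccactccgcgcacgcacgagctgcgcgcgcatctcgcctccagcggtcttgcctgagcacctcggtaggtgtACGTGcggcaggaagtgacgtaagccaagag
The TATAAA match begins 52 bases before the Tf start site and the ACGTG match 31 bases before that of Tfrc. GGGCGG (a GC box), ACGTG and TATAAA were searched on both strands, and no matches overlapped. Of 33469 windows of that length in the RefSeq promoter table, 30.5% held GGGCGG, 16.6% held ACGTG and 12.9% held TATAAA. Among the 7 windows of the 6 members that the table holds, TATAAA was found in Tf alone and ACGTG in Tfrc alone. GGGCGG was found 3 times in Slc40a1, 4 times in 1 of the 2 windows of Slc11a2, 2 times in Ireb2, 3 times in Aco1, and not in Tf or Tfrc. These matches describe letters and not bound sites.

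The 2 iron regulatory protein genes were measured at few counts. Ireb2 (ENSRNOG00000013271), which encodes the regulatory protein that is degraded when iron is plentiful, had 9, 2 and 4 counts in ChryM, 15, 6 and 5 counts in Model and 16, 7 and 10 counts in Ctrl. The libraries of all 3 groups overlapped. The log2 difference was -1.08 ± 0.49 for ChryM against Model (adjusted p = 0.194), -1.13 ± 0.47 for ChryM against Ctrl (adjusted p = 0.0778) and -0.05 ± 0.41 for Model against Ctrl (adjusted p = 0.963). ChryM against Ctrl passed when ChryM 1 was left out (-1.83, adjusted p = 0.0236) or Ctrl 2 was left out (-1.40, adjusted p = 0.0363), and in no other setting. Ireb2 entered the test through Ctrl and Model libraries alone, so the p-values of its ChryM comparisons may be too small. In the edgeR fit without a count filter, ChryM differed by -1.07 ± 0.46 from Model (adjusted p = 0.320). It differed there by -1.10 ± 0.44 from Ctrl (adjusted p = 0.131).

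Aco1 (ENSRNOG00000005849), which encodes cytosolic aconitase, the protein that binds RNA when it has lost its iron-sulfur cluster, had 12, 8 and 7 counts in ChryM, 6, 2 and 4 counts in Model and 9, 10 and 10 counts in Ctrl. All Model libraries lay below all Ctrl libraries in CPM, while ChryM overlapped both groups. Of all genes tested, which leave out Aco1, 26.1% had Model and Ctrl libraries that did not overlap. The depth-scaled ratio of summed counts was 0.507 for Model over Ctrl, with an exact 95% interval of 0.236 to 1.02, and 1.83 for ChryM over Model, with an interval of 0.894 to 3.96. Both intervals hold 1.

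The 2 metal transporters gave less. Slc11a2 (ENSRNOG00000019550), the iron importer of endosomes, had 6, 14 and 7 counts in ChryM, 5, 3 and 6 counts in Model and 6, 8 and 5 counts in Ctrl, with all groups overlapping. Its ChryM over Model ratio was 1.56 with an exact 95% interval of 0.792 to 3.23. Slc40a1 (ENSRNOG00000003872), the exporter ferroportin, had 0, 0 and 1 counts in ChryM, 0, 1 and 2 counts in Model and 1, 3 and 0 counts in Ctrl. A library with a count of 0 allows a level of up to 3 counts, which was 3.50 to 5.13 CPM, and a difference in Slc40a1 was not detectable at this depth. In RefSeq, Slc40a1 overlaps Plp2l1, Asnsd1 and Asdurf, and Slc11a2 overlaps a gene for a long noncoding RNA, so reads there may have been divided between or lost to neighbours, which was not tested.

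**Figure D4:**
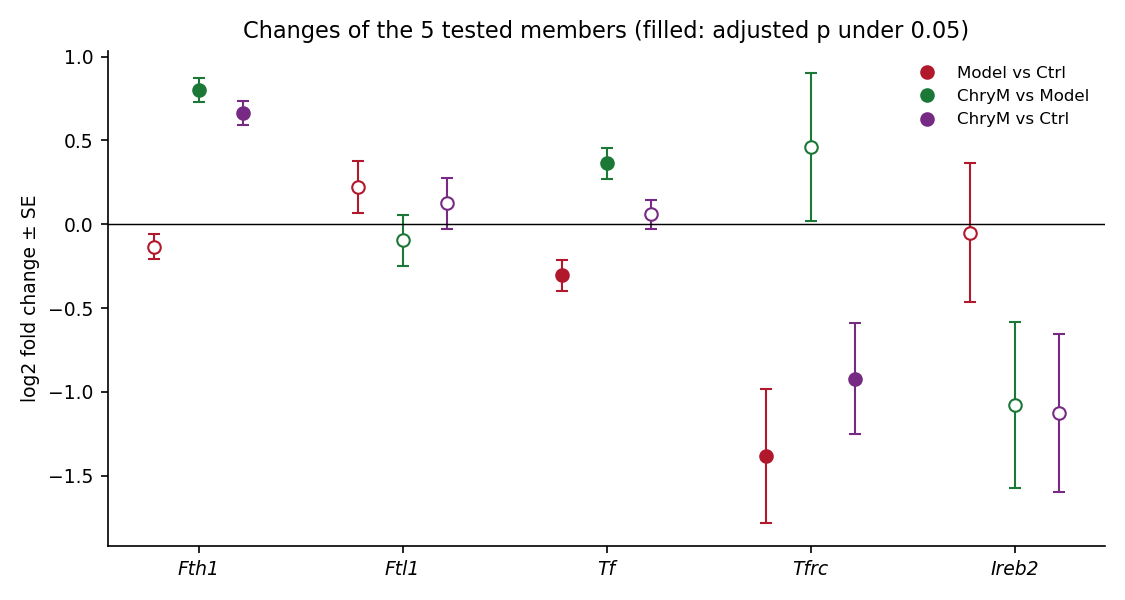
Log2 fold change with its SE for the 5 genes that passed the count filter in Model against Ctrl, ChryM against Model and ChryM against Ctrl; filled points have an adjusted p under 0.05. Fth1 and Tf are filled above 0 for ChryM against Model, and Tf and Tfrc below 0 for Model against Ctrl. The Fth1 level in ChryM was known when the genes were chosen, so the fill of Fth1 in the ChryM comparisons is a description and not a test. Tfrc passed the count filter only through its Ctrl libraries, so its adjusted p against Ctrl may be too small. Ireb2 passed that filter through Ctrl and Model libraries alone, so its adjusted p in the ChryM comparisons may be too small.

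Counted over the list, 2 of the 5 tested members were lower in Model than in Ctrl and 0 were higher, against 5.39% lower and 7.04% higher of all genes tested. Since Tfrc entered through its Ctrl level alone, that count is a description. In ChryM against Model, 2 were higher, against 3.86% of all genes, and 0 were lower, against 4.41%; Fth1 is one of these 2 and nothing is read from that count. In ChryM against Ctrl, 1 was higher, against 9.83%, and 1 was lower, against 8.96%; these were Fth1 and Tfrc, and nothing is read from that count either. Without Ctrl 2, 0 members were called in Model against Ctrl by edgeR, with Tf and Tfrc at unadjusted p of 0.0177 and 0.00773; with all libraries, DESeq2 called 1, which was Tf. Model is the lower arm of one comparison and the baseline of another, and the 3 comparisons share libraries in this way throughout.

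The wider iron pathway, 96 genes in 7 lists drawn up with earlier results known, showed few calls. Of these, 94 were in the table and 40 were tested. In Model against Ctrl 3 were higher and 0 lower, 7.5% of those tested against 12.4% of all genes, with a median log2 difference of 0.03. In ChryM against Model 2 were higher and 0 lower, 5% against 8.27%, with a median of -0.06. In ChryM against Ctrl 5 were higher and 3 lower, 20% against 18.8%, with a median of 0.12. These shares were below or near those of all genes.

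Among genes that handle ferritin and its iron, 2 of the 5 in the table were tested. Pcbp2, which encodes an iron chaperone that delivers iron to ferritin, rose in ChryM against Ctrl by 0.45 ± 0.12 (edgeR, adjusted p = 0.00251). Ncoa4, the receptor for ferritin breakdown, had 4 counts in ChryM, 3 counts in Model and 0 counts in Ctrl over all libraries. Of genes that control the regulatory proteins and systemic iron, 7 of 11 were tested. Herc2, a ubiquitin ligase with a role in turnover of the FBXL5 adaptor that targets Ireb2 protein, rose in Model against Ctrl by 0.60 ± 0.20 (adjusted p = 0.0272). Cul1, the scaffold of the ligase that holds that adaptor, rose in ChryM against Model by 0.47 ± 0.14 (adjusted p = 0.0204).

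Mitochondrial iron and iron-sulfur cluster genes made up the largest list, with 16 of 31 tested. Iscu, the scaffold on which clusters are built, rose against Ctrl by 0.43 ± 0.16 in Model (edgeR, adjusted p = 0.0497) and by 0.49 ± 0.15 in ChryM (adjusted p = 0.00882). Ciao1, a part of the cytosolic cluster-targeting complex, rose against Ctrl by 0.46 ± 0.12 in Model (adjusted p = 0.00231) and by 0.35 ± 0.11 in ChryM (adjusted p = 0.0205). Fdx2, a ferredoxin of cluster assembly, rose in ChryM by 0.49 ± 0.16 against Model (adjusted p = 0.0393) and by 0.51 ± 0.16 against Ctrl (adjusted p = 0.0104).

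In the heme list, with 8 of 20 tested, Alas1, the first enzyme of heme synthesis, fell in ChryM against Ctrl by 0.83, SE 0.32 (edgeR, adjusted p = 0.0459), the list's 1 call. In the lipid peroxidation and ferroptosis list, with 6 of 10 tested, Gpx4, the peroxidase that repairs oxidised lipids, rose in ChryM against Ctrl by 0.26 ± 0.09 (adjusted p = 0.0376). Acsl4, which loads polyunsaturated fatty acids into lipids, fell by 0.93, SE 0.29, in the same comparison (adjusted p = 0.0125). Neither list had a call in ChryM against Model or in Model against Ctrl. Of 13 uptake genes 1 was tested, Slc22a17, a receptor for siderophore-binding lipocalin, and it did not pass in any comparison, with log2 differences of -0.08 in Model against Ctrl, -0.09 in ChryM against Model and -0.17 in ChryM against Ctrl. The export and oxidation genes Heph, Hephl1, Cp and Hamp were all below the filter, with a summed 5.54 to 9.33 CPM in ChryM, 4.13 to 6.52 CPM in Model and 9.65 to 14.1 CPM in Ctrl.

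Likeness of pattern was measured as Pearson's r of log2 CPM over the 9 libraries, among 2193 named genes with a mean of at least 50 CPM. The libraries share their groups and their depth, so these values describe these data and carry no test. Fth1 was most like Col4a2 (r = 0.962), a collagen IV chain gene, and the ribosomal protein genes Rpl21 (r = 0.960) and Rpl12 (r = 0.956). Tf was most like Chd9 (r = 0.919), Nbl1 (r = 0.913) and Selenop (r = 0.911), the last encoding a selenium carrier. Ftl1 was most like Faim2 (r = 0.935), Ndufb3 (r = 0.923) and Ensa (r = 0.883). Tfrc was most like the myelin gene Mal (r = 0.90), Zbtb18 (r = 0.896) and Gpm6a (r = 0.895), and Ireb2 was most like Ppp2r1a (r = 0.924), Pcmt1 (r = 0.877) and Gprasp1 (r = 0.875).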

How the data were processed

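The authors deposited whole-number read counts per gene and, in another table with gene lengths, FPKM, per the file headers. The submitters' processing notes name HISAT2 and DESeq2 with no version. The libraries were strand-specific (dUTP), per the labels' protocols. The build, annotation, counting tool and use of strand were not given in the sources used here. Each deposited FPKM value (100%) equalled its count divided by length and library total, within a relative 1e-09, so the 2 tables are 1 measurement. No pair of libraries was identical.

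Counts were filtered (filterByExpr), TMM-scaled and tested with edgeR 4.0.16 (robust glmQLFit and glmQLFTest, two-sided) in R 4.3.3, with 1 coefficient per group over all 9 libraries, 6 residual degrees of freedom, and Benjamini-Hochberg adjustment over 7073 genes at 0.05. TMM factors were 0.956 to 1.07. The printed SE is the larger of the test's error and the counting error, except in the fit without a count filter, where it is the test's error alone. CPM are TMM-scaled. For low-count members, ratios of summed counts carry exact binomial intervals at 95%. Alternatives used DESeq2 1.42.0 and limma 3.58.1 (voom, and log2(FPKM + 1) or log2(FPKM + 0.1)), other filters and scalings, a replicate block, summed IDs and leaving out each library; adding Fth1-ps5 to Fth1 was chosen after seeing the data. The scripts were tested on simulated counts. Members and lists were chosen with earlier results of these data known. All 8 members are named, from the lists each called gene (up to 6 a list and comparison by smallest p), and the 3 genes of highest r per tested member. Gene names and promoter windows were matched to RefSeq GRCr8; coordinates of other builds were not used. Raw reads were not analysed here, and results for withheld items are not reported here.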

Additional observations from a re-analysis of the deposited data

How the results depend on the processing

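In ChryM against Model, 2 members were called in each of the 21 other settings, and in no setting did a called member change sign. These were Fth1 and Tf. The Fth1 difference was known when the members were chosen, so nothing is read from its calls. In Model against Ctrl the count of 2 called members became 1 with DESeq2, where Tfrc had no adjusted p, 1 with no count filter, 3 with library totals only, where Fth1 was added, and 0 to 2 when 1 library was left out, 0 being without Ctrl 2. It stayed at 2 with a mean count of at least 30, but these were Fth1 and Tf, since Tfrc was not tested there. In ChryM against Ctrl the count of 2 became 1 with DESeq2, limma-voom, no count filter, a mean count of at least 30, log2(FPKM + 1) and log2(FPKM + 0.1), and was 1 to 2 when 1 library was left out. The lost call in ChryM against Ctrl was Tfrc in all of these. Without ChryM 1 or without Ctrl 2 the count stayed at 2 because Tfrc was lost and Ireb2 was called. Nothing is read from that Ireb2 call, since Ireb2 entered the main fit through Ctrl and Model libraries alone. The cause of these changes was not tested, with 2 exceptions. A mean count of at least 30 leaves Tfrc out of the genes tested. DESeq2 gave Tfrc no adjusted p in ChryM against Ctrl (DESeq2, unadjusted p = 0.0727). The log2 heavy to light ratio with 1 library left out was 0.73 to 0.99 for ChryM against Model, 0.40 to 0.66 for ChryM against Ctrl and -0.43 to -0.19 for Model against Ctrl.

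Over all genes, calls in Model against Ctrl numbered 879, but 440 with DESeq2 and 553 or 521 on FPKM with a pseudocount of 1 or 0.1. In ChryM against Model they numbered 585, but 262 with DESeq2, 352 or 351 on FPKM and 390 without ChryM 2. In ChryM against Ctrl they numbered 1329, but 591 with DESeq2 and 793 or 772 on FPKM. With library totals as the scale, the Model against Ctrl calls were 276 higher and 655 lower, against 498 and 381 with TMM. Same-numbered libraries did not deviate together (r of -0.03 to 0.04 over 9 pairs, against -0.04 to 0.06 over 18 pairs of different number), so no pairing by number was seen. Counting noise lowers such r values, so a pairing is not excluded. With the replicate block, 2 members were called in each comparison. Over the table, 855, 586 and 1317 genes were then called in Model against Ctrl, ChryM against Model and ChryM against Ctrl. Depth limits Tfrc, Ireb2, Aco1, Slc11a2 and Slc40a1, with 0 to 24 counts a library.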
